A study of Oryza sativa with 6 samples.

Results

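The genes described here encode calcium sensors and calcium-regulated protein kinases of rice. They comprise the CBL genes (calcineurin B-like sensors), the CIPK genes (CBL-interacting protein kinases) and the CPK genes (calcium-dependent protein kinases, also written CDPK). A gene was included if its symbol or a synonym in the RefSeq gene table was CIPK, CBL, CPK or CDPK followed by a number, with or without a leading Os. The table held 63 such genes, of which 51 had a probe set mapped to that gene alone, out of 17905 genes with such a probe set on the array. They were 7 CBL, 24 CIPK and 20 CPK genes. For each gene the brightest of its probe sets was used, and 47 of the 51 were bright enough to be tested.

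Calcium signals in plants are read by proteins that bind the ion through EF-hand motifs. CBL proteins bind calcium but have no enzyme activity of their own. They dock onto CIPK kinases through a short motif of the kinase's regulatory domain and bring them to the plasma membrane or the vacuole membrane, where CIPKs phosphorylate ion channels and transporters. CPK proteins join the sensor and the kinase in a single chain. Both systems are best known for responses to salt, drought, cold, nutrient supply and pathogens.

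The plants were seedlings of the indica variety IR64, labelled light-grown and raised at 28 °C under a cycle of 14 h light and 10 h dark to an age of 7 days. One group had been kept in 50 µM benzyl aminopurine (BAP, a synthetic cytokinin), another in 50 µM indole-3-acetic acid (IAA, the main natural auxin), and the control group in 0.1% dimethyl sulfoxide. A solvent concentration is recorded here for the control group only, so whether the solvent was matched is not known. Tissue of 1 h and 3 h was pooled for each sample, so an early and a later response cannot be separated. There were 2 samples per group, called biological replicates in the series design, and each was read on its own Affymetrix rice array. Because whole seedlings were used, fewer cells of a type and less RNA per cell cannot be told apart.

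The median deposited intensity was between 16.6 and 23.1 on the 6 arrays. Replicates correlated across tested probe sets at r = 0.983 to 0.988, where probe sets are not independent replicates. Arrays of different groups correlated at r = 0.975 to 0.985, a range that overlaps that of the replicates. The BAP arrays were run on a different day from all IAA and control arrays, so for every value with BAP the hormone and the run day cannot be told apart. BAP and IAA arrays were washed on fluidics modules 3 and 4 and control arrays on modules 1 and 2, so for either hormone against control the hormone and the module cannot be told apart. The treatments were visible in genes known to respond to them. IAA20 (LOC4340245), an auxin-inducible gene, read 225 and 182 on BAP arrays, 2485 and 2763 on IAA arrays, and 203 and 189 on control arrays. RR9, a cytokinin-inducible gene, read 2055 and 1909 on BAP arrays, 116 and 132 on IAA arrays, and 237 and 306 on control arrays. The leaf marker genes that were found had a summed intensity of 21667 to 22385 with BAP, 22550 to 22995 with IAA and 22087 to 22215 in controls. RBCS1 was the only one of those 5 genes near 0, at 4.23 to 12.7. The 6 root marker genes summed to 3106 to 3113 with BAP, 4211 to 4582 with IAA and 6095 to 6172 in controls. None of the 6 was near 0. Of the 6, 2 fell with BAP against control (Lsi1 and Lsi2, silicon transporter genes of the root), or 33.3%, where 0.274% of all tested probe sets passed. With BAP against IAA 1 fell (Lsi2), or 16.7%, where 2.24% passed. With IAA against control 0 passed, where 0.851% of all did. In that comparison 2 had an unadjusted limma p under 0.05, or 33.3%, against 10.8% of all tested probe sets. Lsi1 and Lsi2 made up most of the sum, and 2 of the 6 were not lower with BAP against control (CASP1 at 0.01 and HMA2 at 0.17 on the log2 scale). The part of this difference in the values below was not tested.

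Differences in the calcium kinase and sensor genes were small. Of the 47 tested genes, 0 passed the threshold with IAA against control and 0 with BAP against control, and 1 passed between the hormones: CIPK1, which was lower with BAP than with IAA. A gene passed with a limma p under 0.05 after Benjamini-Hochberg adjustment over all 34316 tested probe sets. Across all of those, 0.851% passed for IAA against control, 0.274% for BAP against control and 2.24% for BAP against IAA, with 1.13% lower with BAP. At those rates a count of 0 or 1 among 47 genes is near the background. No gene reached a log2 change of 1 in either direction in any comparison, against 1.12% of all tested probe sets for IAA, 0.644% for BAP and 1.7% between the hormones.

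**Figure D1:**
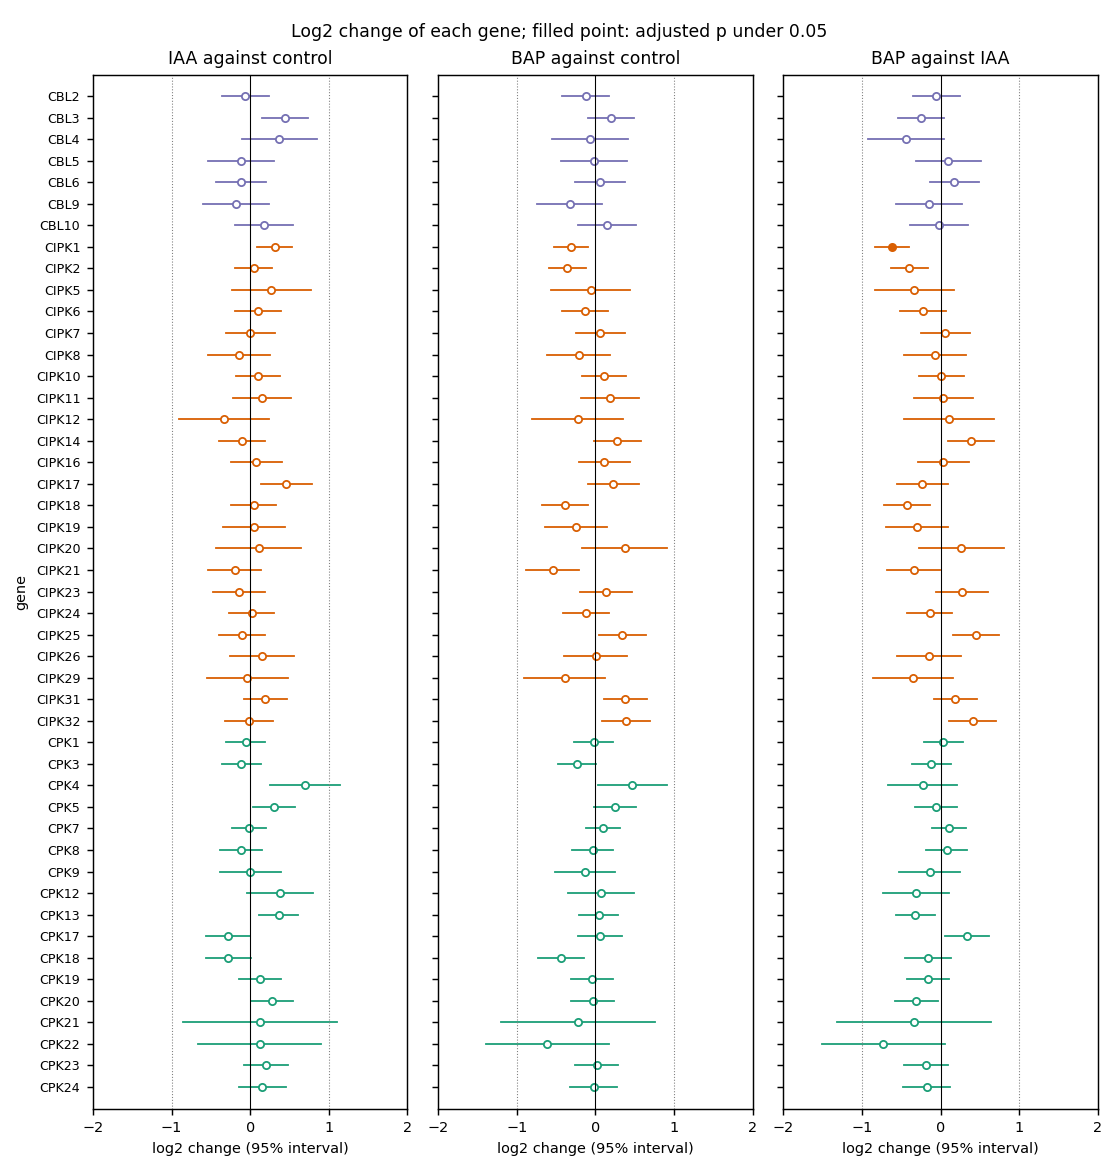
Log2 change of the 47 tested genes in 3 comparisons, with limma 95% intervals as bars (x axis) and genes down the page, coloured by family. The only filled point, for a limma adjusted p under 0.05, is CIPK1 in BAP against IAA at -0.62, and dotted lines mark a log2 change of 1 either way.

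The intervals give a range for the log2 change of each gene on the scale used, which understates changes of dim genes. They reflect the spread between arrays and not run day or fluidics module, so they do not bound a missed effect of a hormone. In each comparison the 95% interval of the log2 change lay inside -1 to 1 for 45 of 47 genes. The exceptions were CPK21 in all 3 comparisons, CPK4 for IAA against control, and CPK22 for both comparisons with BAP. Intervals lay inside -0.5 to 0.5 for 23 genes with IAA against control, 22 with BAP against control and 19 with BAP against IAA. The median standard error of these genes was 0.133, against 0.19 over all tested probe sets, and their probe sets were mostly brighter (median intensity 481 for CIPK, 232 for CBL and 602 for CPK genes, against 113 overall).

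Counts at a looser limit describe smaller differences. At an unadjusted limma p under 0.05, 7 of 47 genes (14.9%) differed between IAA and control, against 10.8% of all tested probe sets, and all 7 were higher with IAA (background 5.25% higher and 5.6% lower). For BAP against control the number was 9 (19.1%, against 7.57% overall), 4 higher (background 4.09%) and 5 lower (background 3.48%). For BAP against IAA it was 10 (21.3%, against 12.7% overall), 4 higher (background 6.53%) and 6 lower (background 6.16%). The count for IAA was 1 without rescaling between arrays and 6 with each array centred on its median. The corresponding counts were 2 and 9 for BAP against control, and 5 and 9 for BAP against IAA. The counts over all 34316 tested probe sets also changed with these settings. For IAA against control they were 2995 without rescaling and 3344 with centred arrays, against 3723. For BAP against control they were 1856 and 2394, against 2599, and for BAP against IAA 3487 and 3962, against 4356.

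Both IAA arrays lay above both control arrays for 15 of 47 genes (31.9%, against 21.1% of all tested probe sets) and below them for 6 (12.8%, against 22.9%). The median log2 change of the 47 genes with IAA was 0.05, against -0.01 over all tested probe sets. Without rescaling between arrays that median was 0.00, against -0.08 over all. BAP arrays lay above control arrays for 12 genes (25.5%, against 17.8%) and below them for 10 (21.3%, against 19.9%), with a median of -0.02. BAP arrays lay below IAA arrays for 19 genes (40.4%, against 19.5%) and above them for 7 (14.9%, against 19.7%), with a median of -0.14. Over all tested probe sets the median between the hormones was -0.0001. Without rescaling it was -0.04 for the 47 genes, against 0.08 over all tested probe sets. With arrays centred on their medians it was -0.14 for the 47 genes, against -0.02 over all. These comparisons share arrays and are not independent of each other.

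**Figure D2:**
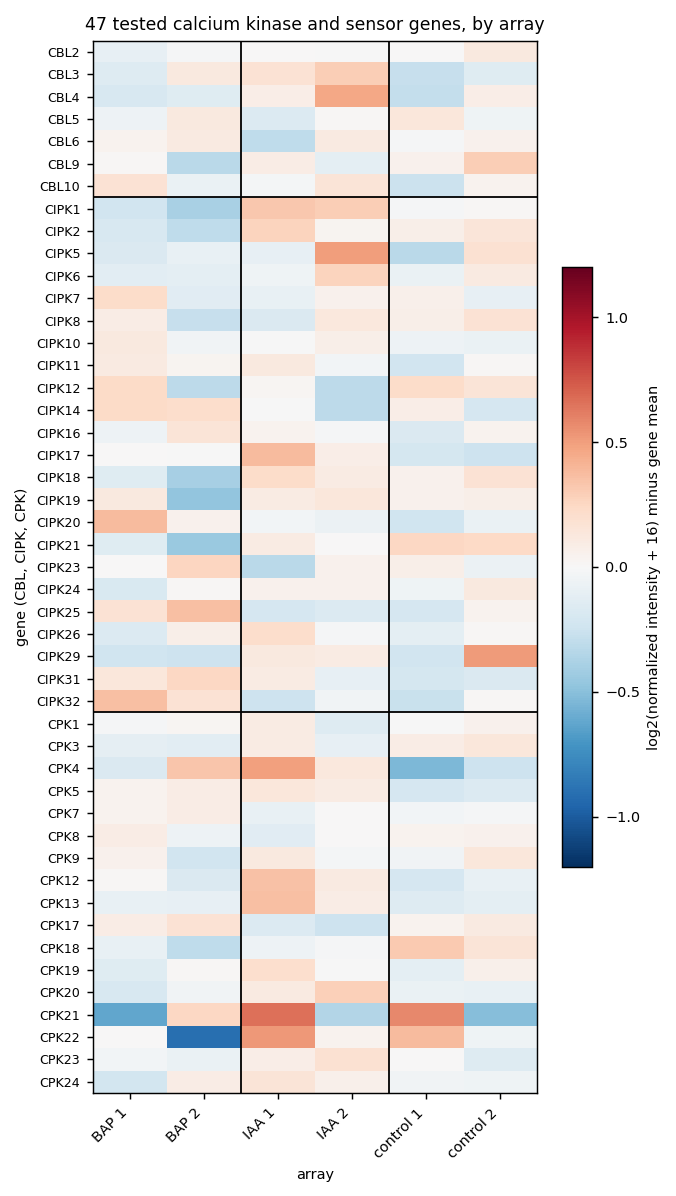
Each row is 1 of the 47 tested genes and each column 1 array; the colour is log2(normalized intensity + 16) minus the gene's mean over the 6 arrays. CIPK1 is blue on both BAP arrays and red on both IAA arrays, whereas CPK21 and CPK22 differ as much between replicates as between groups.

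The CBL genes, which encode the sensors, are described first. All 7 that had a probe set were tested, and 0 passed in any comparison, with log2 changes from -0.18 to 0.45 for IAA against control, -0.33 to 0.19 for BAP against control, and -0.44 to 0.18 for BAP against IAA. At an unadjusted p under 0.05 the counts were 1 (14.3%, against 10.8% of all tested probe sets), 0 (against 7.57%) and 0 (against 12.7%) in that order. CBL3 (LOC4333502) encodes a sensor whose Arabidopsis counterpart sits at the vacuole membrane. It read 599 and 723 on BAP arrays, 755 and 820 on IAA arrays, and 548 and 600 on control arrays. The IAA arrays were the highest and did not overlap the controls, at a log2 change of 0.45 (SE 0.13, limma adjusted p = 0.219).

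CBL4 (LOC4339432) is the rice counterpart of Arabidopsis SOS3, the sensor of the salt tolerance pathway. Its signal was low, at 44.6 and 46.6 on BAP arrays, 57.2 and 79.3 on IAA arrays, and 40.9 and 57.0 on control arrays. BAP arrays lay just below IAA arrays (log2 change -0.44, SE 0.21, limma adjusted p = 0.449), and the IAA replicates were themselves uneven. CBL9 (LOC9269084) read 102 and 77.2 with BAP, 108 and 92.1 with IAA, and 105 and 127 in controls, with a log2 change of -0.33 for BAP against control (SE 0.19, limma adjusted p = 0.797). The 2 CBL9 probe sets both carry the suffix x, which in Affymetrix naming marks probes that may also bind other transcripts.

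CBL6 (LOC4351575) was the brightest of the family, and gave 987 and 1035 with BAP, 772 and 1033 with IAA, and 947 and 990 in controls. One IAA array stood low and the other was level with the BAP arrays, so the groups overlapped. CBL10 (LOC4325933), whose Arabidopsis counterpart acts in salt tolerance of the shoot, had overlapping groups in all 3 comparisons, with 261 and 217 on BAP arrays, 226 and 259 on IAA arrays, and 190 and 237 on control arrays. The remaining genes were CBL2 and CBL5, with log2 changes between -0.12 and 0.10.

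The CIPK genes hold the single call. CIPK1 (LOC4325161, chromosome 1) encodes a kinase whose Arabidopsis counterpart binds CBL1 and CBL9 and acts in abscisic acid and osmotic stress responses. Its normalized intensity was 1611 and 1442 on BAP arrays, 2362 and 2328 on IAA arrays, and 1866 and 1910 on control arrays. The groups did not overlap, with controls between the hormones. CIPK1 averaged 1527 ± 120 with BAP and 2345 ± 23.6 with IAA (SD, n = 2 arrays each), a log2 change of -0.62 (SE 0.10, 95% interval -0.83 to -0.40, limma adjusted p = 0.0131).

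Against the control group, which averaged 1888 ± 31.3 (SD, n = 2), neither hormone alone took CIPK1 past the threshold. The log2 change was 0.31 with IAA (SE 0.10, limma adjusted p = 0.247) and -0.31 with BAP (SE 0.10, limma adjusted p = 0.404). The value for IAA was 0.30 when only the control and IAA arrays, all of 1 run day but of different fluidics modules, were fitted. The call between the hormones kept its direction in all 13 alternative settings and its threshold in 7. It was lost without IAA array 1 (limma adjusted p = 0.0769), IAA array 2 (0.0601) or BAP array 2 (0.0575). The call was also lost without rescaling between arrays (0.167), with dim probe sets kept (0.0642) and without the intensity trend of the spread (0.129). CIPK1 has a single probe set on the array, so no second reading was available.

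**Figure D3:**
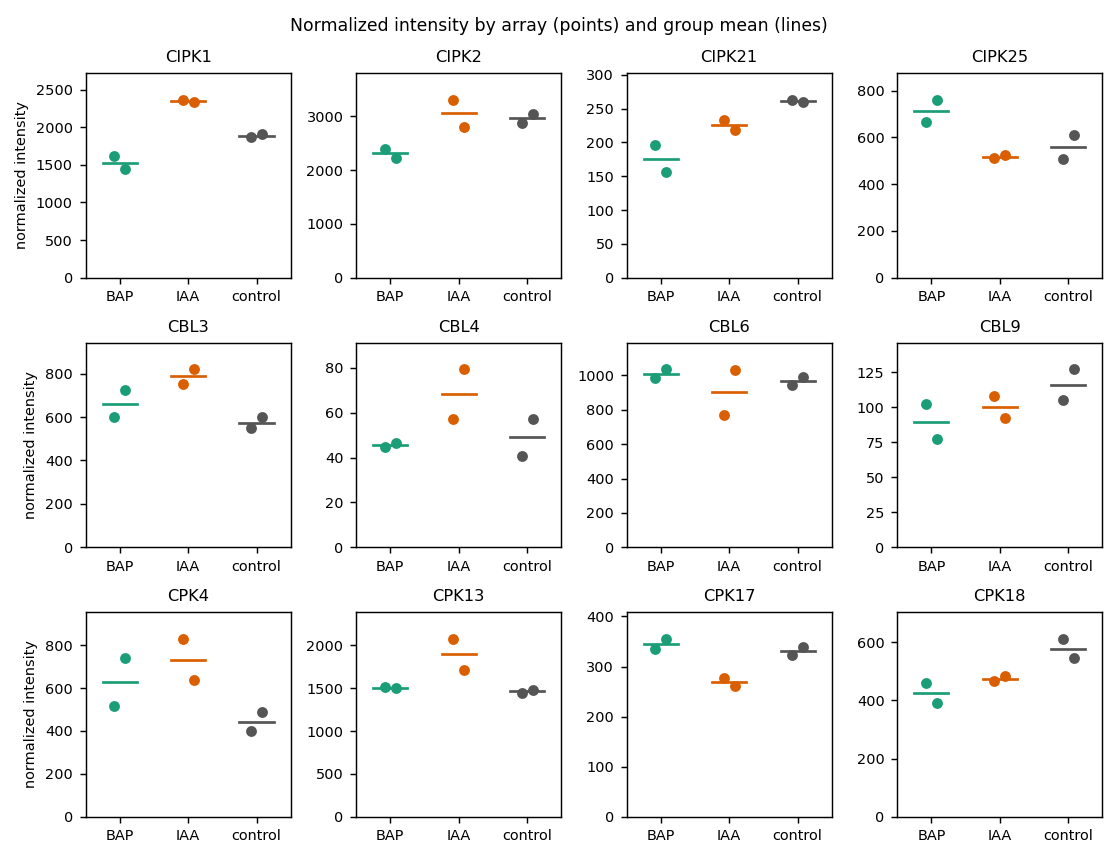
Normalized intensity (y axis, from 0) of 12 genes on the BAP, IAA and control arrays; points are arrays and lines are group means of 2 arrays. CIPK1 has IAA arrays at 2362 and 2328, above the controls, and BAP arrays at 1611 and 1442, below them; for CBL6 the groups overlap.

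Other CIPK genes with low values on BAP arrays did not pass. CIPK2 (LOC4344287) read 2398 and 2220 on BAP arrays, 3303 and 2808 on IAA arrays, and 2878 and 3037 on control arrays, with BAP arrays below all others. Its log2 change was -0.40 for BAP against IAA (SE 0.10, limma adjusted p = 0.105) and -0.36 for BAP against control (SE 0.10, adjusted p = 0.344). The probe set used has the suffix x, and a dimmer probe set of CIPK2 read 0.17 for BAP against IAA (limma adjusted p = 0.814), the opposite sign. For BAP against control that probe set gave -0.33, and for IAA against control -0.495 (limma adjusted p = 0.411), where the brighter one gave 0.04, so in the dimmer reading the IAA group had the lowest mean. The dimmest of the 3 gave -0.61 for BAP against IAA (limma adjusted p = 0.515).

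CIPK21 (LOC4344036) encodes a kinase whose Arabidopsis counterpart acts in osmotic and salt stress at the vacuole. It read 196 and 156 with BAP, 234 and 219 with IAA, and 263 and 260 in controls, so the groups did not overlap and BAP was lowest. Among the CIPK genes this was the lowest value for BAP against control, at -0.54 (SE 0.15, limma adjusted p = 0.3). CIPK18 (LOC4338445) had the same order of BAP and the other groups, with 626 and 521 on BAP arrays, 807 and 742 on IAA arrays, and 717 and 785 on control arrays. Its log2 change was -0.43 for BAP against IAA (SE 0.13, limma adjusted p = 0.166).

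A second set of CIPK genes was highest on BAP arrays, again with 0 calls. CIPK25 (LOC4341236) read 666 and 760 on BAP arrays, 510 and 523 on IAA arrays, and 509 and 609 on control arrays. BAP arrays lay above all others, at a log2 change of 0.45 against IAA (SE 0.13, limma adjusted p = 0.149) and 0.35 against control (SE 0.13, adjusted p = 0.555). CIPK32 (LOC4351419) had 1536 and 1348 with BAP, 1006 and 1163 with IAA, and 991 and 1209 in controls, with a log2 change of 0.41 against IAA (SE 0.13, limma adjusted p = 0.216). The same pattern held for CIPK14 (LOC4351307), a kinase gene studied in rice immune signalling, with 2877 and 2830 on BAP arrays, 2431 and 1964 on IAA arrays, and 2593 and 2120 on control arrays. Its log2 change against IAA was 0.38 (SE 0.13, limma adjusted p = 0.233). CIPK14 and its close relative CIPK15, which has no probe set of its own here, may share signal.

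CIPK31 (LOC4332665), also known as OsCK1, was first described in rice as a gene responding to cold, light, cytokinin, sugars and salts. It read 662 and 715 on BAP arrays, 644 and 562 on IAA arrays, and 518 and 531 on control arrays. Both hormone groups lay above the controls, and the log2 change was 0.38 with BAP (SE 0.12, 95% interval 0.11 to 0.65, limma adjusted p = 0.41) and 0.19 with IAA (SE 0.12, adjusted p = 0.634). A second, dimmer probe set of CIPK31 gave 0.29 with BAP and -0.20 with IAA.

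CIPK17 (LOC4337736) was the CIPK gene with the highest value for IAA against control. It had 267 and 266 on BAP arrays, 351 and 283 on IAA arrays, and 228 and 222 on control arrays, with a log2 change of 0.46 for IAA (SE 0.14, limma adjusted p = 0.251). The IAA replicates were uneven, and the lower of them was close to the BAP arrays. For the dimmest tested CIPK gene, CIPK20 (LOC4338083), intensities were 27.9 and 19.0 with BAP, 17.0 and 16.2 with IAA, and 12.7 and 16 in controls, near the limit for testing.

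The CIPK genes with the best known ion transport targets did not pass either. CIPK23 (LOC4342410) encodes the kinase that, with CBL1, activates the potassium channel AKT1. It read 1288 and 1541 on BAP arrays, 1022 and 1331 on IAA arrays, and 1351 and 1224 on control arrays, and the groups overlapped throughout. CIPK24 (LOC4341477) is the rice SOS2, the kinase partner of CBL4 that activates the sodium exchanger SOS1. Its arrays stood at 421 and 484 with BAP, 499 and 497 with IAA, and 464 and 521 in controls. Its 95% intervals were -0.27 to 0.31 for IAA against control and -0.41 to 0.17 for BAP against control.

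Counted over the family, 0 of 23 tested CIPK genes were called for IAA against control, with 2 higher and 0 lower at an unadjusted p under 0.05. For BAP against control 0 were called, with 3 higher and 4 lower at an unadjusted p under 0.05. Between the hormones CIPK1 alone was called, with 3 higher and 4 lower at an unadjusted p under 0.05. These counts are 8.7% of the tested CIPK genes for IAA against control (10.8% of all tested probe sets), 30.4% for BAP against control (7.57%) and 30.4% for BAP against IAA (12.7%). The medians were 0.04, 0.00 and -0.07.

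CPK genes, which carry sensor and kinase in a single protein, had 0 calls among 17 tested. Their median log2 change was 0.12 for IAA against control, -0.02 for BAP against control and -0.16 for BAP against IAA. At an unadjusted p under 0.05, 4 were higher and 0 lower with IAA, 1 higher and 1 lower with BAP, and 1 higher and 2 lower between the hormones. The shares of the tested CPK genes were 23.5% with IAA (10.8% of all tested probe sets), 11.8% with BAP (7.57%) and 17.6% between the hormones (12.7%). Without rescaling between arrays, the median of all 47 genes with IAA was 0.00, against -0.08 over all tested probe sets. The median of the CPK genes alone was not computed in that setting.

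The highest value of all 47 genes for IAA against control belonged to CPK4 (LOC4328155), a kinase gene linked in rice to salt and drought tolerance. It read 517 and 740 on BAP arrays, 829 and 637 on IAA arrays, and 398 and 490 on control arrays. Both hormone groups lay above the controls and overlapped each other. The log2 change was 0.70 with IAA (SE 0.20, 95% interval 0.26 to 1.14, limma adjusted p = 0.198) and 0.47 with BAP (SE 0.20, adjusted p = 0.622). The spread between replicates of each group was wide for a gene of this brightness.

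CPK13 (LOC4336783), studied in rice as OsCDPK7 for cold, salt and drought tolerance, was the brightest of the family. It had 1515 and 1498 on BAP arrays, 2075 and 1713 on IAA arrays, and 1447 and 1481 on control arrays. IAA arrays lay above all others, with a log2 change of 0.36 against control (SE 0.11, limma adjusted p = 0.246). A second probe set of CPK13 gave 0.51 in the same comparison (limma adjusted p = 0.225) and -0.51 for BAP against IAA, where the first gave -0.32. The readings of CPK13 thus had the same sign in both of these comparisons.

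CPK20 (LOC4343644) and CPK5 (LOC4330351) were the other CPK genes with an unadjusted p under 0.05 for IAA against control. CPK20 read 552 and 614 with BAP, 681 and 772 with IAA, and 598 and 594 in controls, with a log2 change of 0.28 for IAA (SE 0.12, limma adjusted p = 0.449). CPK5 read 400 and 412 with BAP, 428 and 415 with IAA, and 335 and 345 in controls, with a log2 change of 0.30 for IAA (SE 0.12, limma adjusted p = 0.396). In CPK5 the BAP arrays, too, lay above the controls (0.24, SE 0.12, limma adjusted p = 0.723).

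CPK18 (LOC4343002) encodes a kinase that acts upstream of a mitogen-activated protein kinase in rice defence. It read 458 and 391 with BAP, 466 and 483 with IAA, and 611 and 545 in controls. Controls were the highest group, and the log2 change was -0.43 with BAP (SE 0.13, limma adjusted p = 0.363) and -0.28 with IAA (SE 0.13, adjusted p = 0.495). A dim second probe set of CPK18 gave -0.46 and -0.26. CPK17 (LOC4342456), studied in the cold response, had 335 and 355 on BAP arrays, 277 and 262 on IAA arrays, and 323 and 338 on control arrays. The IAA arrays were the lowest, with a log2 change of 0.34 for BAP against IAA (SE 0.13, limma adjusted p = 0.284).

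CPK12 (LOC4336653), which limits reactive oxygen in rice under salt, read 59.7 and 50.4 with BAP, 79.8 and 64.5 with IAA, and 49.0 and 54.3 in controls, at a log2 change of 0.38 for IAA (SE 0.19, limma adjusted p = 0.519). In CPK21 (LOC4346187), linked to abscisic acid and salt responses, the replicates of every group were far apart, with 53.6 and 112 on BAP arrays, 154 and 68.1 on IAA arrays, and 144 and 59.5 on control arrays. No group stood apart, and the standard error was 0.43. CPK22 (LOC4347564), the dimmest tested CPK gene, had 16.9 and 1.47 with BAP, 31.0 and 17.7 with IAA, and 26.6 and 15.5 in controls. The log2 change of CPK22 for BAP against IAA was -0.73 and lay between -1.88 and -0.27 over the alternative settings, so its size depended on the pseudocount and the arrays used.

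Of the 47 tested genes, 9 had more than 1 tested probe set, which gave a check within the arrays. CIPK10 (LOC4332786) had 4, and their log2 changes for BAP against control were 0.11, 0.22, 0.39 and 0.46, all above 0 and all with a limma adjusted p of at least 0.459. In CIPK23 the dimmer probe set gave -0.09 for BAP against control, where the brighter one gave 0.13. The probe sets of CIPK7 (LOC4333514), a kinase linked to chilling tolerance, gave 0.06 and 0.38 for BAP against control. The table lists THA4 and TATA, names of a chloroplast protein transport component, as synonyms of this locus, so which transcript each of its probe sets reads is uncertain. No probe set of any of these 9 genes passed the threshold.

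**Figure D4:**
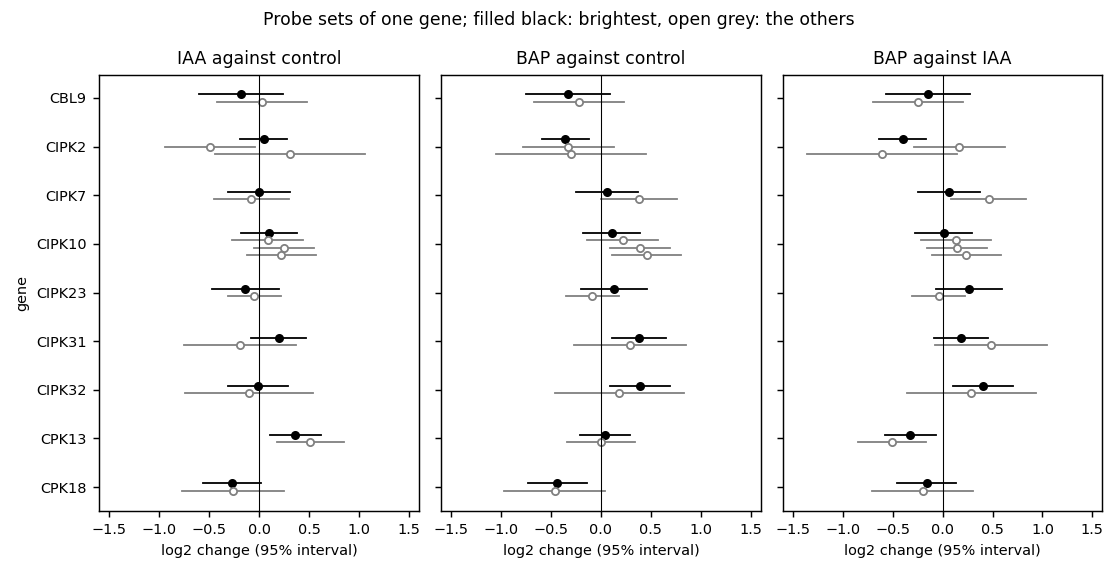
Log2 change (x axis) with limma 95% intervals for the tested probe sets of the 9 genes that have more than 1, in 3 comparisons; filled black points are the brightest probe set and open grey points the others. CPK13 and CPK18 read alike in both probe sets, whereas CIPK2 had probe sets of opposite sign for BAP against IAA.

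Several CIPK genes lie side by side in the RefSeq gene order. CIPK2 and CIPK29 are adjacent on chromosome 7, with 0 protein-coding genes between them. CIPK29 (LOC4344285) read 97.9 and 97.1 with BAP, 130 and 128 with IAA, and 98.9 and 176 in controls. Its log2 change for BAP against IAA was -0.35 (SE 0.23, limma adjusted p = 0.599). In that comparison the 3 probe sets of CIPK2 gave -0.40, 0.17 and -0.61, from brightest to dimmest. CIPK12 and CIPK30 are adjacent on chromosome 1, where CIPK12 was dim and CIPK30 was under the limit for testing. The other close pairs were CIPK16 with CIPK27 and CIPK5 with CIPK13, in each of which the second gene had no probe set.

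Other genes of calcium signalling, matched by name, held no call in the groups closest to these families. The 3 calmodulin genes, the 2 calmodulin-dependent kinase genes, the 2 channel genes (TPC1 and GLR3.1) and the 8 tested calcium ATPase and exchanger genes held 0 calls in all 3 comparisons. At an unadjusted p under 0.05, 2 of these 15 genes differed between BAP and IAA, where 12.7% of all tested probe sets did. They had opposite signs, with log2 changes of 0.38 for ACA8 and -0.25 for ACA10. With either hormone against control 0 differed, where 10.8% of all tested probe sets did with IAA and 7.57% with BAP. Calmodulin-like genes, whose products bind calcium without a kinase domain, had 0 calls among 22 tested, while an unadjusted p under 0.05 was found for 4 with IAA, 4 with BAP (each against control) and 6 between the hormones. Those are 18.2%, 18.2% and 27.3% of the calmodulin-like genes, against 10.8%, 7.57% and 12.7% of all tested probe sets. CML27 (LOC4332731) has 2 probe sets, of which only the brighter was followed. CML27 read 720 and 945 on BAP arrays, 1970 and 1251 on IAA arrays, and 859 and 933 on control arrays. It was highest on IAA arrays, with a log2 change of -0.92 for BAP against IAA (SE 0.20, limma adjusted p = 0.0592), and it passed the threshold in 3 of 13 other settings (limma adjusted p = 0.00788 without rescaling, 0.0369 with centred arrays and 0.0209 without IAA array 2, the lower of the IAA arrays). CML18 (LOC9266860) had 1345 and 1142 with BAP, 849 and 952 with IAA, and 1281 and 1382 in controls, at -0.56 for IAA against control (SE 0.12, limma adjusted p = 0.0845).

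Among 21 tested genes for targets and partners, mostly HAK potassium transporters with the AKT1 channel and RBOHB, an NADPH oxidase, 0 were called. At an unadjusted p under 0.05 there were 4, 4 and 7 in the same order (19%, 19% and 33.3%, against 10.8%, 7.57% and 12.7%). Of these, 1 was higher and 3 lower with IAA, 0 higher and 4 lower with BAP, and 2 higher and 5 lower between the hormones. HAK27 (LOC4333296) had the smallest p of the list, at -0.61 for BAP against control (SE 0.13, limma adjusted p = 0.152). HAK1 (LOC4335729), a high-affinity potassium transporter of the root, read 892 and 908 on BAP arrays, 1289 and 1354 on IAA arrays, and 1031 and 1280 on control arrays, at -0.55 for BAP against IAA (SE 0.12, limma adjusted p = 0.0599). In HAK10 (LOC4341573) the order was the opposite, with 777 and 657 with BAP, 465 and 510 with IAA, and 626 and 692 in controls, at 0.54 (SE 0.13, limma adjusted p = 0.0783). The HAK1 probe set used has the suffix x. HAK1 and HAK10 each have 2 probe sets, of which only the brighter was followed. The root marker sums given above were also lowest on BAP arrays, and their part in the value of HAK1 was not tested.

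Kinases of the same superfamily that use no calcium sensor, the SnRK1 and SAPK genes, held 1 called gene among 13 tested. That is 7.69% both for IAA against control and for BAP against IAA, where 0.851% and 2.24% of all tested probe sets passed. An unadjusted p under 0.05 was found for 2 with IAA, 2 with BAP (each against control) and 3 between the hormones. Those are 15.4%, 15.4% and 23.1%, against 10.8%, 7.57% and 12.7% of all tested probe sets. OSK24 (LOC4345873, also listed as SNRK1B), which encodes a kinase of the energy-sensing SnRK1 type, read 1542 and 1413 with BAP, 1066 and 1071 with IAA, and 1603 and 1566 in controls. IAA arrays were lowest. The probe set has the suffix s, for probes shared by transcripts of several genes. It is the brightest of 3 probe sets of OSK24, and the others were not followed here. OSK24 fell with IAA against control by 0.56 on the log2 scale (SE 0.10, limma adjusted p = 0.0376) and was higher with BAP than with IAA by 0.46 (SE 0.10, adjusted p = 0.0499). In 5 of 14 other settings, the replicate block described below not among them, the first call kept its threshold. It was lost without either control array (limma adjusted p = 0.392 and 0.265), without either IAA array (0.166 and 0.119), without rescaling (0.167), with centred arrays (0.138), with dim probe sets kept (0.128) and without the intensity trend (0.233). The second call was lost in all 13 other settings, with adjusted p from 0.0501 to 0.231.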

How the data were processed

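RNA from 6 seedling samples was hybridised with a biotin label to Affymetrix rice arrays, per the labels. The deposited table gives 1 linear intensity per probe set and array. Its background correction, summary method and scaling are not given in the sources used here, and no detection calls were used. Of 57381 probe sets, 187 array controls were left out. The remaining intensities were transformed to log2(intensity + 16), a scale that understates changes of dim genes, and quantile normalized because array medians differed by up to 0.262 (limit 0.1). Probe sets with a mean under the 40th percentile (4.70 on that scale) were left out, which removed 22878 and kept 34316. Printed intensities are normalized values with the 16 subtracted again. Intensities of different probe sets do not rank transcripts. Run day and fluidics module came from the run records, per the file headers.

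Group means were fitted over all 6 arrays with limma 3.58.1 (R 4.3.3), with 3 residual degrees of freedom and a spread that followed intensity. The p-values are two-sided. The number of arrays limits the precision. The fit was tested on simulated data. Python 3.11.15, pandas 2.3.3, scipy 1.17.1 and matplotlib 3.10.9 served for the tables, intervals and plots.

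Probe sets were named by gene number through the platform annotation and RefSeq genes of a japonica assembly, whereas the samples are indica. It gave 22436 probe sets 1 gene and 95 several, and left 34663 unnamed here. Of the 51 probe sets used, 14 carry a suffix (a, s or x) of probes shared between transcripts. A gene named both CAM and CML counted as CML. Sequences of the genes were not used here.

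The members and lists were chosen with earlier results of these data known. Values by array are given for members past the threshold, the 4 of each family with the smallest p, and the brightest and dimmest tested of each family. Of each related list, up to 4 with the smallest p were eligible. Other members were named after their values were seen, for an unadjusted p under 0.05, a known role, several probe sets or a neighbouring member.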

Additional observations from a re-analysis of the deposited data

How the results depend on the processing

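CIPK1 stayed the only called gene of the 47 between the hormones in 7 of 13 alternatives. The number of called genes was 0 in the others: without rescaling between arrays, with dim probe sets kept, without the intensity trend of the spread, and without IAA array 1, IAA array 2 or BAP array 2, so that leaving out single arrays gave 0 to 1. For IAA or BAP against control it was 0 in all alternatives. Over all probe sets, IAA against control gave 502 calls without rescaling (244 higher and 258 lower, against 217 and 75), 68 with dim probe sets kept, 92 without the intensity trend, and 85 to 287 with single arrays left out, against 292. BAP against control gave 210, 14 and 13 under the same 3 settings, 60 with centred arrays, and 13 to 92 with arrays left out, against 94. BAP against IAA gave 974 calls without rescaling (625 higher and 349 lower, against 381 and 388), 234 with dim probe sets kept, 223 without the trend, and 310 to 591 with arrays left out, against 769. The causes were not tested. Each named gene was followed in the comparisons for which it was named. There the values that changed sign, all under the threshold, were, for BAP against IAA, the next probe sets of CIPK2 (0.168) and CIPK23 (-0.037), and CBL6 with single arrays left out (-0.03 to 0.381, lowest without IAA array 1). With single arrays left out, BAP against control ranged from -0.841 to 0.018 for ACA7 and from -0.16 to 0.093 for CAMK1, highest without BAP array 1. The replicate numbers did not pair the arrays (r of same-numbered deviations 0.0174, 0.0264 and -0.0595), and with the replicate number as a block 0, 0 and 1 of the 47 genes were called, CIPK1 at a limma adjusted p of 0.0197; OSK24 lost its IAA call with that block (0.0513). Brightness limits CIPK20, CPK22 and the 4 untested genes most.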

Other observations

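The 4 genes under the limit for testing read at most 13.1 on any array. CPK29 (LOC4351829) read 9.96 and 13.1 on BAP arrays, 0.816 and 1.8 on IAA arrays, and 6.55 and 2.05 on control arrays. CPK6 (LOC4331257) read 10.1 and 11.5 with BAP, 4.68 and 0.566 with IAA, and 11.8 and 6.14 in controls. CIPK30 stayed between 0.983 and 6.47, and CPK2 between 0.566 and 1.85. The BAP arrays of CPK29 lay above the IAA and control arrays. With dim probe sets kept, all 4 genes were fitted and 0 were called in any comparison. At an unadjusted limma p under 0.05 the counts were 0 for IAA against control, 1 for BAP against control (CPK29) and 2 for BAP against IAA (CPK29 and CPK6). Over all 57194 probe sets of that fit the counts were 4989, 3744 and 5670 in the same order. With 4 genes read near 0, these counts do not describe a pattern of the untested genes. In that fit CPK29 had a log2 change of 0.67 for BAP against IAA (SE 0.16, limma adjusted p = 0.209) and CPK6 one of 0.53 (SE 0.19, limma adjusted p = 0.421).

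The 12 genes with no probe set mapped to them alone were CBL1, CBL7, CIPK3, CIPK9, CIPK13, CIPK15, CIPK27, CIPK33, CPK11, CPK14, CPK25 and CPK28, and they were not analysed here. CBL1, the sensor partner of CIPK23, is among them.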
